A study of Mus musculus with 16 samples.

Results

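Receptor tyrosine kinases for growth factors were followed as mRNA in mouse neural stem cells: Egfr, Erbb2 and Erbb3 of the EGF receptor family, Fgfr1, Fgfr2 and Fgfr3, Pdgfra and Pdgfrb, and the insulin-like receptors Igf1r and Insr. These 10 genes were chosen by name, as receptors of these families, from the 57132 genes counted in each library. RNA-seq covered 12 libraries of neural stem cells, all kept in the medium that the labels call GF and the series describes as self-renewing. The groups were gRNA libraries 4 to 6 and control libraries 4 to 6 of batch 2, and gRNA libraries 1 to 3 and control libraries 1 to 3 of batch 1. Cells labelled gRNA received TAPIR and cells labelled control did not. The labels explain neither TAPIR nor the target of the guide RNA, so no targeted gene could be checked, and they do not say what separates the batches. The sources used here do not state strain, age or origin of the cells. The library numbers only name libraries, and no label states whether libraries of the same number belong together, so no pairing was modelled. Nothing states that libraries came from separate cultures, so p-values measure the spread between these libraries, which may be technical.

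These receptors span the plasma membrane, signal as pairs once a growth factor binds, and phosphorylate tyrosines on each other. The marks recruit adaptor proteins that pass the signal to the Ras-MAPK, PI3K and phospholipase C pathways, while phosphatases, ubiquitin ligases and membrane inhibitors shut it off. Neural stem cells are commonly expanded with EGF and FGF2, and media for them usually hold insulin, so the EGF, FGF and insulin-like receptors are the entry points of that culture signal.

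Promoter windows from RefSeq (build GRCm38.p6, 250 bases before to 50 after the annotated start) were found for 6 of the 10 receptors. The 4 shown belong to the receptors that had the largest falls and the largest rises between batches among those with a window, so that the sequences at their starts can be set side by side. Capitals mark a GC box (GGGCGG, searched on both strands, so CCGCCC as well).
Fgfr2, chr7:130266759-130267058, minus strand: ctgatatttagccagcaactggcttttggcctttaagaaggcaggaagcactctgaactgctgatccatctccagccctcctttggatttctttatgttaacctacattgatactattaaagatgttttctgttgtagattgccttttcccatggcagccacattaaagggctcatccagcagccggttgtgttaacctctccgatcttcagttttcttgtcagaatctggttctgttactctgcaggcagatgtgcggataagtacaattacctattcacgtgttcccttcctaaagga
Egfr, chr11:16751953-16752252, plus strand: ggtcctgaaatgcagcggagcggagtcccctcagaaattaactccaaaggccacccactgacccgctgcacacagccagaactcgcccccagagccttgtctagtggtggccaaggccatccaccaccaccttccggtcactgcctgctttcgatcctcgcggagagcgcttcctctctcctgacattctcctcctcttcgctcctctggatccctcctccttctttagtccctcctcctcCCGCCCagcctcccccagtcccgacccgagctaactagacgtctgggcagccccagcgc
Pdgfra, chr5:75152001-75152300, plus strand: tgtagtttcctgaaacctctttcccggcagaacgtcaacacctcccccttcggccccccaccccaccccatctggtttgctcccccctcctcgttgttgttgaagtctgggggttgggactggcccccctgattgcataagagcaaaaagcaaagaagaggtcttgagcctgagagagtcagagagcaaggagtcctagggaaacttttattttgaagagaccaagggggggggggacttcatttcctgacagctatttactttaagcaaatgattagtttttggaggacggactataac
Erbb2, chr11:98412234-98412533, plus strand: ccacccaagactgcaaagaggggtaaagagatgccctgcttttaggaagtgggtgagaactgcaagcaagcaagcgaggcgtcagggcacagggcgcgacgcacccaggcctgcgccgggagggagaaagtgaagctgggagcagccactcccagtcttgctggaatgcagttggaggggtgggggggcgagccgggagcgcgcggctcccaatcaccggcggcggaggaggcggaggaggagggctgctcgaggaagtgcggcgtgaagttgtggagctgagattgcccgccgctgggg

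The window of Fgfr2, a receptor that fell, holds 4 CG pairs and 43.7% G+C, and the window of Pdgfra, a receptor that rose, holds 5 CG pairs and 51.0% G+C. Egfr, which fell, has 15 CG pairs, 62.3% G+C and 1 GC box, and Erbb2, which rose, has 21 CG pairs, 66.0% G+C and no GC box. Over all 32851 windows of this length the median was 7 CG pairs and 52.7% G+C, and 35.7% held a GC box. Neither direction of change thus went with 1 kind of window among these 4. The receptors whose windows are not shown, Fgfr3 and Igf1r, both rose. Fgfr3 had 26 and 30 CG pairs (69.7% and 73.0% G+C) in its windows, and Igf1r had 48 (76.0% G+C), more than any of the 4. A relation of the windows to the direction of change was not tested. TATAAA is absent from the 4 windows shown on both strands, against 13.6% of all windows that hold it. Of the 4, CCAAT occurs in the Erbb2 window alone, against 37.4% of all windows. These are matches of letters, not measured binding sites.

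The libraries held 8414028 to 19454390 reads in genes. Reads that fell in no annotated gene made up 8.83% to 12.7% of each batch 2 library and 18.95% to 25.1% of each batch 1 library, so this share moved with the batch throughout. The 10 progenitor markers summed to 1519 to 1916 CPM (read counts scaled to library size by TMM) in batch 2 and 1661 to 2809 CPM in batch 1. Sox2 was at 126 to 192 CPM in batch 2 and 133 to 189 CPM in batch 1, whereas Prom1 was at 0 to 0.947 CPM in batch 2, with 0 in gRNA library 6, and 4.24 to 8.08 CPM in batch 1. The 9 mural and fibroblast markers summed to 2.49 to 19.4 CPM in batch 2 and 63.0 to 169 CPM in batch 1, where Acta2 made up most of the sum. Without Acta2 the sums were 1.96 to 18.3 CPM in batch 2 and 4.25 to 5.89 CPM in batch 1. Endothelial and microglial markers summed to at most 6.57 CPM in any library. Control library 6 stood apart: it was the highest of batch 2 for 8 of the 9 receptors other than Pdgfrb. The share of all genes for which it was highest is not given here. Its median distance from the batch mean was 0.42 (log2) over the receptors and 0.22 over all genes, against 0.073 to 0.27 and 0.081 to 0.16 in the other libraries.

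Between the batches the receptor set changed in composition. Fgfr2 and Egfr fell in batch 2, Pdgfra, Erbb2 and Fgfr3 rose, Igf1r rose by less, and Fgfr1 did not differ detectably. In edgeR's quasi-likelihood test over all 12 libraries, 7 of the 8 receptors with enough reads passed an adjusted p of 0.05 (Benjamini-Hochberg over 17704 genes), 4 higher and 3 lower. The same test called 61.4% of all genes, 28.4% higher and 33.1% lower, so most genes differed between the batches and the receptors' count is read against that. Without control library 6 the test called 6 of 8 receptors, Insr being lost, and 12074 of 18354 genes. The size of the change was 0.77 (log2) at the median receptor and 0.44 at the median gene. The libraries of the batches did not overlap for 5 of the 8 tested receptors, against 41.6% of all genes tested. In bulk RNA, fewer cells of a type and less RNA per cell cannot be told apart, and batch cannot be told apart from whatever else separated the libraries of the batches.

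**Figure D1:**
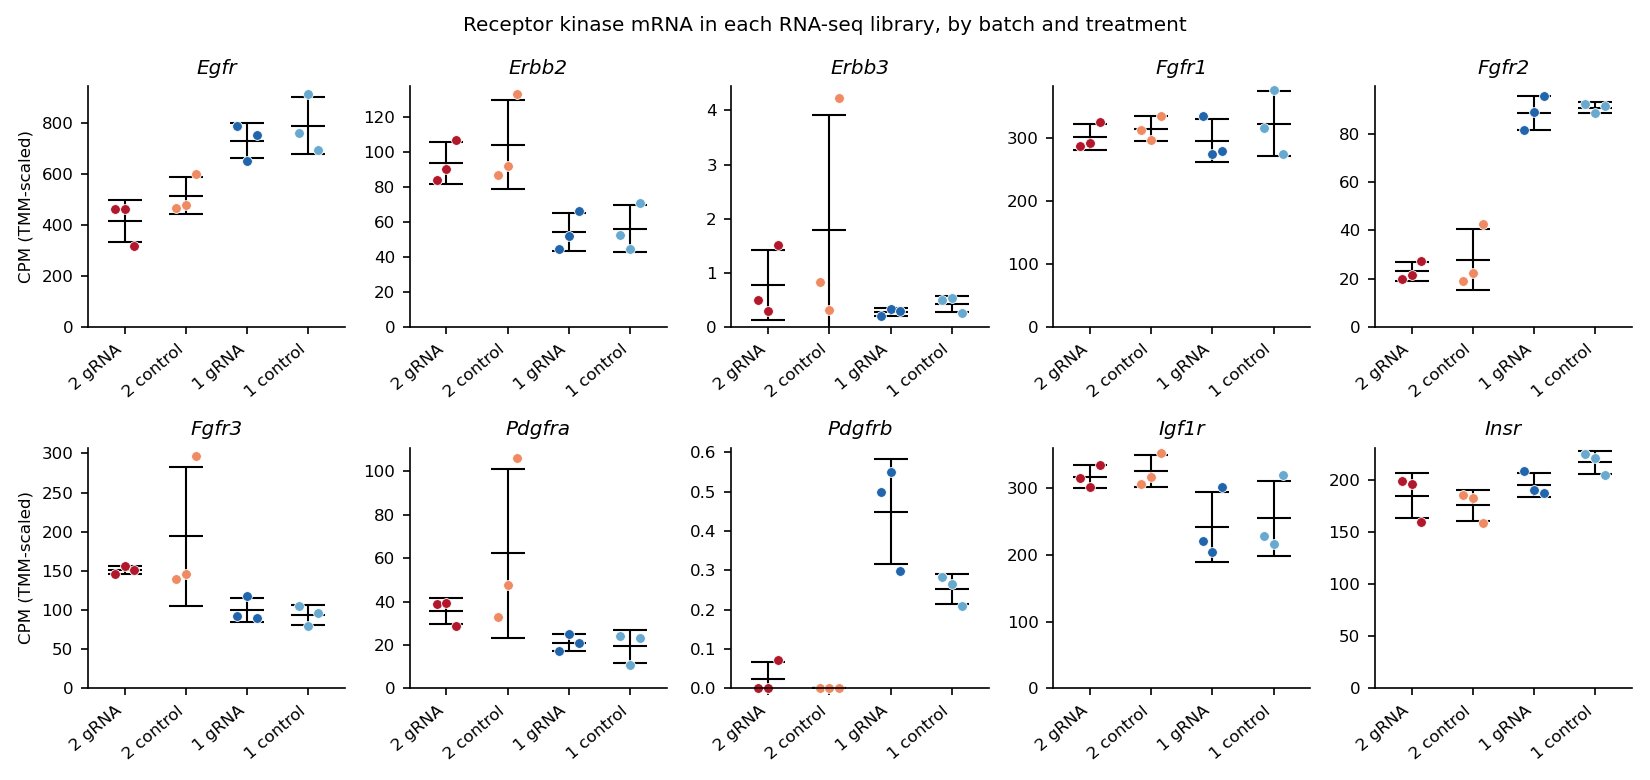
TMM-scaled CPM of each receptor (vertical axis, linear, starting at 0, scaled per gene) in every library, grouped as batch 2 gRNA, batch 2 control, batch 1 gRNA and batch 1 control. Points are single libraries, and bars give the mean and SD of 3 (bars that would pass 0 end at the axis): Fgfr2 drops below 43 CPM in all of batch 2, and control library 6 is the high point of the batch 2 controls for Fgfr3 and Pdgfra.

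Egfr, the receptor for EGF, TGF-alpha and HB-EGF, had 463, 462 and 319 CPM in the batch 2 gRNA libraries and 468, 478 and 600 CPM in the batch 2 controls. Batch 1 held more, with 789, 653 and 752 CPM in gRNA libraries and 759, 916 and 697 CPM in controls. Every batch 2 library lay below every batch 1 library. Egfr averaged 465 ± 89.3 CPM over the 6 batch 2 libraries, 3 of each treatment, and 761 ± 90.1 CPM over the 6 of batch 1 (SD, here and for the other receptors), or -0.72 as a log2 fold change, with SE 0.11, 95% interval -0.96 to -0.47 and adjusted p = 8.04e-05. The fall held within treatments, at -0.79 (log2) among gRNA libraries and -0.60 among controls, and was -0.78 without control library 6.

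Erbb2, the family member with no known ligand that serves as partner of the others, moved the opposite way. It had 83.8, 90.2 and 107 CPM in batch 2 gRNA libraries and 87.2, 92.4 and 133 CPM in batch 2 controls. Batch 1 values were 44.8, 51.9 and 66.2 CPM in gRNA libraries and 52.7, 44.9 and 71.1 CPM in controls. The lowest batch 2 library exceeded the highest batch 1 library. Erbb2 averaged 99.0 ± 18.7 CPM in batch 2 and 55.3 ± 11 CPM in batch 1 (n = 6 each). This is 0.83 on the log2 scale (SE 0.14, interval 0.53 to 1.13, adjusted p = 0.000123), and 0.73 without control library 6.

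Erbb3, a neuregulin receptor with little kinase activity of its own, was near the detection limit. It had 0.503, 0.303 and 1.52 CPM in batch 2 gRNA libraries and 0.827, 0.308 and 4.22 CPM in batch 2 controls. Batch 1 values were 0.200, 0.330 and 0.299 CPM in gRNA libraries and 0.495, 0.531 and 0.261 CPM in controls. Libraries 6 of both treatments held most of its reads. The summed reads were 109 in batch 2 and 29 in batch 1, a depth-scaled ratio of 3.70 (exact 95% interval 2.44 to 5.79, counting error only). Without control library 6 the ratio was 2.05 (1.28 to 3.36), and without gRNA library 6 as well it was 1.48 (0.859 to 2.56), an interval that includes no difference. Erbb3 did not pass the low-count filter of the test over both batches. It was tested between batches under 11 alternatives, which all kept both libraries 6, and 9 of them called it higher in batch 2. No fit that left out control library 6 or gRNA library 6 tested it. These calls therefore give no support for a rise apart from those libraries.

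Fgfr1, a receptor that binds FGF1 and FGF2, was the steady member. It had 288, 293 and 325 CPM in batch 2 gRNA libraries and 312, 297 and 335 CPM in batch 2 controls. The values in batch 1 were 334, 275 and 279 CPM in gRNA libraries and 316, 377 and 275 CPM in controls. The ranges overlapped fully, with 308 ± 19.1 CPM in batch 2 and 309 ± 41.3 CPM in batch 1 (n = 6 each). The batch 2 level over the batch 1 level was -0.0025 in log2 (SE 0.085, adjusted p = 0.982), and its interval ran from -0.18 to 0.18. The value was above 0 under 11 of 22 alternatives and below 0 under the other 11, between -0.047 and 0.083.

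Fgfr2, an FGF receptor whose splice forms bind different ligands, showed the largest difference of the tested receptors. It had 19.9, 21.7 and 27.4 CPM in batch 2 gRNA libraries and 18.9, 22.4 and 42.5 CPM in batch 2 controls. Batch 1 had 81.5, 88.8 and 95.6 CPM in gRNA libraries and 92.4, 88.4 and 91.7 CPM in controls. Even the highest batch 2 library, control library 6, stayed well under the lowest of batch 1. Fgfr2 averaged 25.4 ± 8.83 CPM in batch 2 and 89.7 ± 4.80 CPM in batch 1 (n = 6 each). On the log2 scale the change was -1.83 (SE 0.16, interval -2.18 to -1.47, adjusted p = 3.11e-07), a level 3.55-fold lower in batch 2. It fell under all 22 alternatives, with log2 values between -2.11 and -1.69, and was -2.03 without control library 6.

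Fgfr3, a receptor expressed by ventricular zone progenitors and later by astrocytes, rose in batch 2. It had 146, 157 and 151 CPM in batch 2 gRNA libraries and 140, 146 and 297 CPM in batch 2 controls. Against these stood 92.0, 118 and 90.0 CPM in gRNA libraries and 105, 79.3 and 96.4 CPM in controls of batch 1. The batches did not overlap, and 5 of the 6 batch 2 libraries lay close together. Fgfr3 averaged 173 ± 61.0 CPM in batch 2 and 96.7 ± 13.3 CPM in batch 1 (n = 6 each). This is 0.82 on the log2 scale (SE 0.17, interval 0.45 to 1.20, adjusted p = 0.000865). Without control library 6 the batch 2 mean was 148 ± 6.36 CPM (SD, n = 5) and the log2 fold change 0.61.

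The FGF receptors thus changed against each other, which shows most clearly in reads of one per read of another within a library. For these ratios gene length cancels between libraries but not between genes, so only the change of a ratio can be read, and the pairs were chosen after the values were seen. Fgfr2 gave 0.148 reads per Fgfr3 read in batch 2 (range 0.135 to 0.181) and 0.942 in batch 1 (range 0.753 to 1.12). This ratio was 6.35-fold lower in batch 2, and control library 6 did not stand out in it. Per Fgfr1 read, Fgfr2 gave 0.0817 reads in batch 2 (0.0605 to 0.127) and 0.295 in batch 1 (0.235 to 0.343), while Fgfr3 gave 0.555 in batch 2 (0.448 to 0.885) and 0.320 in batch 1 (0.210 to 0.430). Egfr gave 4.78 reads per Erbb2 read in batch 2 (2.97 to 5.52) and 14.4 in batch 1 (9.79 to 20.4).

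**Figure D2:**
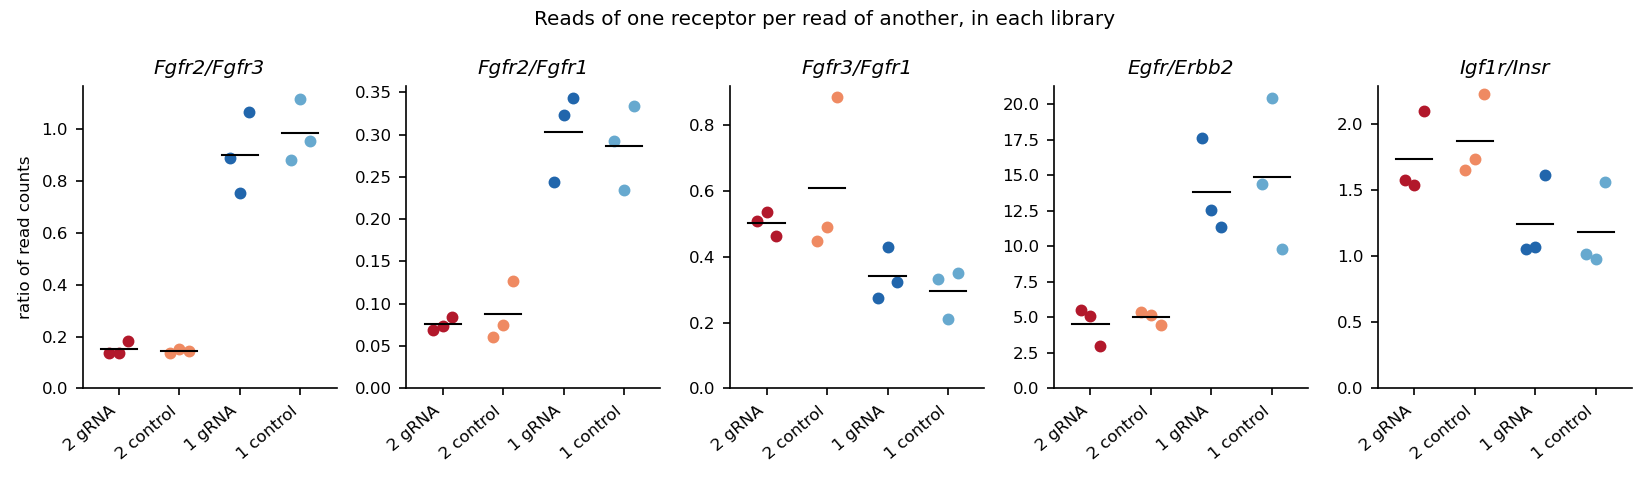
Ratio of read counts of pairs of receptors in each library (vertical axis, linear, starting at 0, scaled per pair), by batch and treatment. Points are libraries and horizontal lines are means of 3: the Fgfr2/Fgfr3 ratio lies between 0.135 and 0.181 in batch 2 and between 0.753 and 1.12 in batch 1.

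Pdgfra, the receptor for PDGF-A that marks oligodendrocyte precursors in the brain, had 38.7, 39.1 and 28.7 CPM in batch 2 gRNA libraries and 32.9, 47.4 and 106 CPM in batch 2 controls. Batch 1 gave 17.1, 25.2 and 21.0 CPM in gRNA libraries and 23.9, 10.8 and 23.4 CPM in controls. The batches did not overlap, and control library 6 held more than any other library. Pdgfra averaged 48.8 ± 28.8 CPM in batch 2 and 20.2 ± 5.45 CPM in batch 1 (n = 6 each). The change was 1.20 in log2 (SE 0.29, interval 0.58 to 1.82, adjusted p = 0.00228). It was 0.77 among gRNA libraries, 1.68 among controls and 0.87 without control library 6 (adjusted p = 0.000877). Over all 22 alternatives the adjusted p was at most 0.023.

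Other oligodendrocyte lineage markers did not move as one with Pdgfra. Cspg4 (NG2), also found on these precursors, was at 139 to 196 CPM in batch 2 and 62.1 to 89.7 CPM in batch 1. Nkx2-2, a transcription factor of the lineage, was at 0 to 0.145 CPM in batch 2 and 12.1 to 30.8 CPM in batch 1. Sox10, a defining factor of the lineage, stayed at or under 1.1 CPM in all libraries and at 0 in 3 of them. The 8 lineage markers summed to 585 to 721 CPM in batch 2 and 498 to 883 CPM in batch 1. Control library 6 was the highest of batch 2 for 6 of these 8 markers and for 5 of 6 astrocyte markers. It was also highest for 6 of 10 progenitor, 3 of 6 neuron, 2 of 9 mural and fibroblast, 1 of 4 endothelial and 1 of 4 microglial markers. The share over all genes is not given here, so these counts show no enrichment of a cell type. Of the astrocyte markers, Aqp4 was at 9.83 CPM in control library 6, against at most 1.30 CPM in the rest of batch 2. Aldoc was at 241 CPM, against at most 238 CPM, and Gfap at 31.3 CPM, below the 40.8 CPM of gRNA library 6. Between the batches, 3 of the 6 astrocyte markers were wholly lower in batch 2, 1 was wholly higher and 2 overlapped. Slc1a2 was at 12.3 to 76.7 CPM in batch 2 and 160 to 285 CPM in batch 1. S100b went the other way, at 20.9 to 52.9 CPM in batch 2 and 7.16 to 12.6 CPM in batch 1. Of 6 neuron markers, 4 were wholly lower in batch 2, 1 was wholly higher and 1 overlapped. The part of these markers in the receptor values was not tested.

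Pdgfrb, the PDGF receptor of mural cells and fibroblasts, was almost absent from batch 2. It was at 0, 0 and 0.0724 CPM in batch 2 gRNA libraries and at 0 in all 3 batch 2 controls. In batch 1 the values were 0.499, 0.550 and 0.299 CPM in gRNA libraries and 0.283, 0.266 and 0.209 CPM in controls. That is 1 read in batch 2 and 30 reads in batch 1, a depth-scaled ratio of 0.0328 (exact 95% interval 0.000805 to 0.198, counting error only). Pdgfrb did not pass the low-count filter, and the 1 alternative that tested it, without that filter, called it lower in batch 2 (adjusted p = 9.17e-06). Of the 9 mural and fibroblast markers, 3 (Acta2, Rgs5 and Col1a2) were lower in every batch 2 library than in any batch 1 library, and the other 6 overlapped. Acta2 was at 0.123 to 1.09 CPM in batch 2 and 57.9 to 164 CPM in batch 1, and Rgs5, a pericyte marker, at 0 to 0.0752 CPM in batch 2 and 0.664 to 1.65 CPM in batch 1. Col1a1, a fibroblast collagen, was at 1.5 to 17.8 CPM in batch 2 and 1.49 to 2.30 CPM in batch 1. Of the 9 markers, 3 to 5 were at 0 in batch 2 libraries and 1 to 2 in batch 1 libraries. Their part in the Pdgfrb result was not tested.

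Igf1r, which binds IGF1 and IGF2, rose modestly in batch 2. It had 315, 302 and 336 CPM in batch 2 gRNA libraries and 307, 318 and 353 CPM in batch 2 controls. For batch 1 they were 221, 204 and 303 CPM in gRNA libraries and 229, 217 and 320 CPM in controls. Libraries 3 of both treatments stood above the rest of batch 1 and overlapped batch 2; for Erbb2 they were likewise the highest of batch 1. Igf1r averaged 322 ± 19.2 CPM in batch 2 and 249 ± 49.2 CPM in batch 1 (n = 6 each). This is 0.37 on the log2 scale (SE 0.11, interval 0.13 to 0.61, adjusted p = 0.0101). Without both libraries 3 it was 0.60 (adjusted p = 7.62e-06). That exclusion was chosen after the values were seen and takes out the batch 1 libraries nearest to batch 2, so it gives no separate support. Among the control libraries alone the rise missed the threshold, at 0.36 (adjusted p = 0.125). The call held under 20 of 22 alternatives, the other exception being a test against a minimum fold of 1.5 (adjusted p = 1.00).

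Insr, the insulin receptor, had 199, 196 and 160 CPM in batch 2 gRNA libraries and 186, 183 and 159 CPM in batch 2 controls. Batch 1 libraries had 209, 190 and 188 CPM in gRNA libraries and 225, 222 and 205 CPM in controls. The batches overlapped. Insr averaged 181 ± 17.5 CPM in batch 2 and 206 ± 15.5 CPM in batch 1 (n = 6 each). This is -0.19 on the log2 scale (SE 0.078, interval -0.36 to -0.023, adjusted p = 0.0472). This call is marginal: it held under 7 of 22 alternatives and was lost on leaving out any single library except gRNA libraries 2, 3, 4 and 5. Over those 12 fits that each leave out 1 library, the log2 values lay between -0.22 and -0.14.

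**Figure D3:**
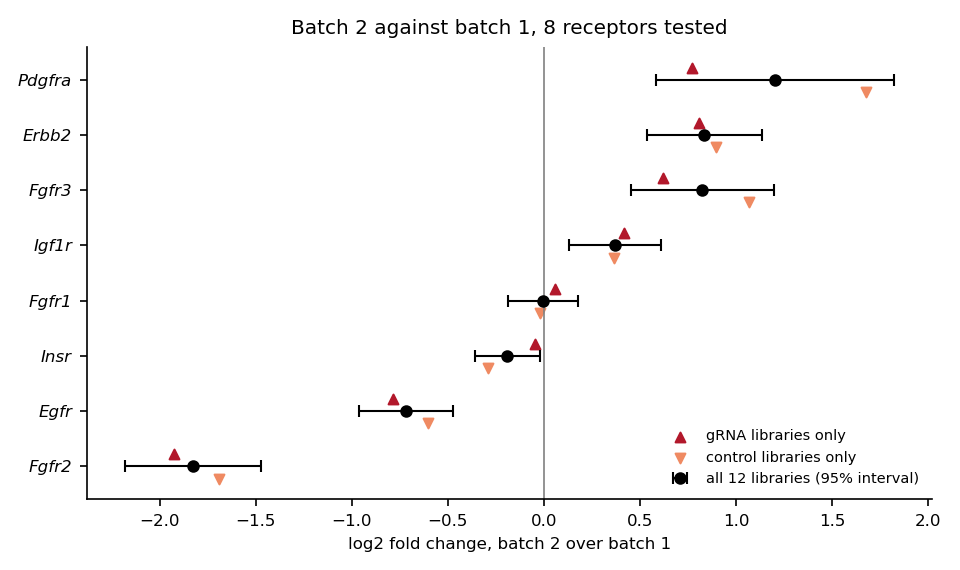
Log2 fold change of the 8 tested receptors, batch 2 over batch 1 (horizontal axis), with 95% intervals from all 12 libraries. Triangles give the fits on gRNA libraries alone and on control libraries alone: Fgfr2 lies at -1.83 and Pdgfra at 1.20, and Fgfr1 sits at 0.

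The genes that act with these receptors also differed between the batches, and no list went 1 way only. Of the 33 ligand genes, 17 were tested, 5 rose and 6 fell in batch 2, with a median log2 fold change of -0.093 (all genes -0.03). Tgfa, a ligand of Egfr, rose to 39.2 ± 16.7 CPM in batch 2, against 10.5 ± 1.49 CPM in batch 1 (SD, n = 6 each; log2 1.88). Hbegf, another Egfr ligand, fell to 32.0 ± 15.6 CPM in batch 2, against 72.1 ± 7.11 CPM in batch 1 (log2 -1.21). Egfr ligands hence changed in both directions. Fgf2 fell by 1.13 on the log2 scale, to 4.58 CPM in batch 2 against 9.97 CPM in batch 1, and Fgf8, a patterning ligand, rose by 2.50, to 2.58 CPM in batch 2 against 0.428 CPM in batch 1. Nrg1, a neuregulin that binds Erbb3, fell to 1.04 CPM in batch 2, against 7.12 CPM in batch 1. Fgf1, which binds all FGF receptors, had a log2 fold change of -0.42 and missed the threshold (adjusted p = 0.128), which it passed at -0.22 without control library 6 and at -0.37 without a low-count filter.

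Among 44 other receptor tyrosine kinases, 33 were tested, 10 rose and 13 fell (median log2 -0.14). The neurotrophin receptors fell: Ntrk3 was at 22.2 ± 5.09 CPM in batch 2 and 99.2 ± 9.59 CPM in batch 1 (log2 -2.17), and Ntrk2, the BDNF receptor, at 173 ± 110 CPM in batch 2 and 464 ± 43.2 CPM in batch 1 (log2 -1.47). Ntrk2 reached 398 CPM in the highest batch 2 library, its batch 2 mean was 128 CPM without control library 6, and among control libraries alone it was not called (log2 -1.13). Tyro3, a receptor for Gas6 and protein S, rose to 207 ± 48.5 CPM in batch 2, against 97.6 ± 10.5 CPM in batch 1 (log2 1.08). Flt3, known from blood progenitors, rose to 1.85 CPM in batch 2, against 0.0475 CPM in batch 1, and Ephb6, an Eph receptor without kinase activity, fell by 3.55 on the log2 scale. Ddr1, a collagen receptor, was at 287 ± 62.3 CPM in batch 2 and 309 ± 53.2 CPM in batch 1 and was not called (adjusted p = 0.523).

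Of 23 co-receptors and binding proteins, 19 were tested, 6 rose and 10 fell (median log2 -0.45). The glypicans, membrane heparan sulfate proteoglycans that can present FGFs, split: Gpc4 fell to 39.2 ± 16.1 CPM in batch 2, against 158 ± 15.6 CPM in batch 1 (log2 -2.03), Gpc5 fell by 4.58, and Gpc3 rose by 1.48. The syndecan Sdc1 rose by 0.69, and Sdc3 had a value of -0.092 and was not called. Igfbp3, which binds IGFs, fell by 0.45, a call lost without any 1 of 6 libraries.

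All 26 adaptors and proximal effectors were tested, and 7 rose and 13 fell (median log2 -0.15). The Shc adaptors split: Shc2 rose to 32.3 ± 3.85 CPM in batch 2, against 1.85 ± 0.271 CPM in batch 1 (log2 4.12, adjusted p = 1.46e-11), while Shc3 fell by 0.78. Irs1, the docking protein of the insulin and IGF1 receptors, fell to 93.7 ± 17.1 CPM in batch 2, against 300 ± 14.8 CPM in batch 1 (log2 -1.68). Frs3, an FGF receptor adaptor, rose by 0.97. Pik3r1, a regulatory subunit of PI3K, fell by 0.30, a call lost among control libraries alone, and Ptpn11, the phosphatase SHP2, had a value of 0.16 and was not called (adjusted p = 0.107), but passed without control library 2, without a low-count filter and without TMM.

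Of 17 inhibitors acting at receptors, 16 were tested, 4 rose and 8 fell (median log2 -0.22). Ptprj, a receptor-type phosphatase, fell to 79.9 ± 11.6 CPM in batch 2, against 297 ± 38.0 CPM in batch 1 (log2 -1.90). Lrig1, a membrane protein that lowers EGF receptor family levels, fell to 282 ± 70.3 CPM in batch 2, against 451 ± 94.5 CPM in batch 1 (log2 -0.68). Grb14 and Grb10, related adaptors that restrain the insulin receptor, went opposite ways, with Grb14 up by 1.00 and Grb10 at 0.146 CPM in batch 2 and 1.84 CPM in batch 1. Sh2b3, an adaptor that dampens receptor signalling, rose by 0.49, a call lost among control libraries alone, and the ubiquitin ligase Cbl had a value of -0.093 and was not called. The calls of these lists are close to or somewhat above the share over all genes, from 64.7% of the tested ligands to 84.2% of the tested co-receptors and binding proteins, against 61.4%.

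**Figure D4:**
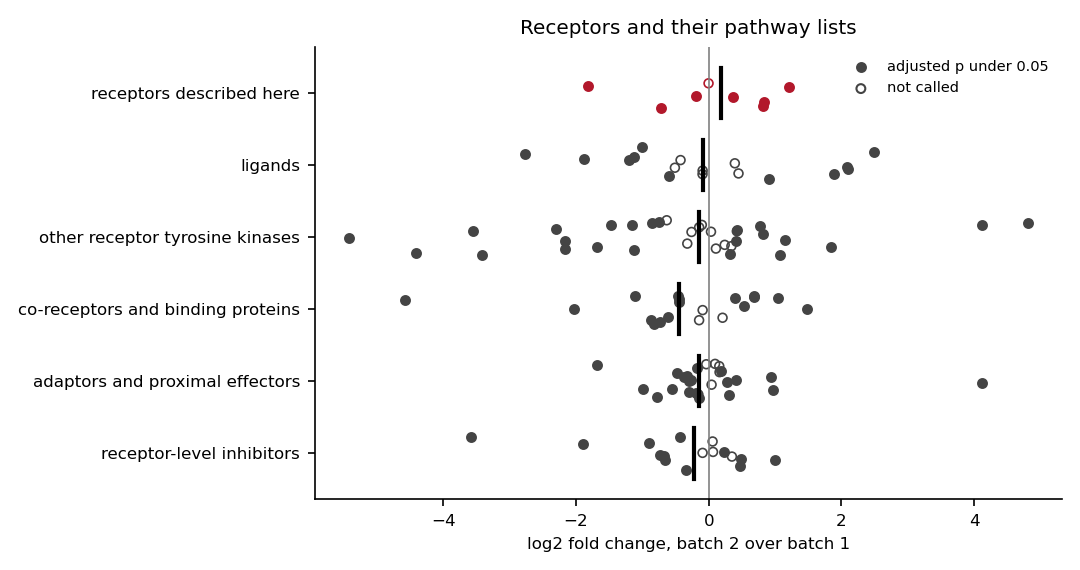
Log2 fold change of single genes, batch 2 over batch 1 (horizontal axis), for the receptors and 5 lists of genes that act with them. Filled points passed an adjusted p of 0.05, open points did not, and vertical bars are medians: every list holds genes on both sides of 0, with medians from -0.45 to 0.18.

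TAPIR treatment, the comparison the series was made for, gave no called receptor. With batch as a term, 0 of the 8 tested receptors passed an adjusted p of 0.05, as did 0% of all 17704 genes tested. At an unadjusted p under 0.05, edgeR found 230 genes, DESeq2 216 and limma-voom 232, with 0 past the adjusted threshold in each tool. With uniform p-values a share of 0.05 of the genes tested would fall under 0.05, and each tool found fewer. The same holds within each batch and for the difference between batches, so these p-values may be too large. Why they were was not tested, and no fit took libraries of the same number as pairs. Egfr had the smallest p of the receptors, at -0.21 in log2 (SE 0.11, interval -0.46 to 0.03, adjusted p = 1.00 by edgeR). It averaged 415 ± 83.1 CPM in gRNA libraries and 515 ± 73.6 CPM in controls of batch 2, and 731 ± 70.1 CPM in gRNA libraries and 791 ± 113 CPM in controls of batch 1 (SD, n = 3 each). In batch 2 the 3 gRNA libraries lay below the 3 controls (highest 463 CPM in gRNA, lowest 468 CPM in controls), which held for 1 of the 9 receptors tested there and for 5.16% of all genes tested there. For Egfr this rests on TMM scaling: by library totals, gRNA libraries 4 and 5 were each at 488 CPM and control library 4 at 478 CPM. In batch 1 the treatments were apart for 0 of the 8 receptors tested there and for 5.03% of all genes tested there. Without gRNA library 6 the value over both batches was -0.13, and without both libraries 6 it was -0.080.

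The intervals limit how large an effect these libraries leave room for. The 95% interval stayed within 1.5-fold in either direction for 7 of the 8 receptors (65.2% of all genes) and within 2-fold for all 8 (89.5% of all genes). Fgfr1 had a log2 fold change of -0.093 (95% interval -0.27 to 0.089), Insr -0.037 (-0.21 to 0.13) and Igf1r -0.056 (-0.30 to 0.18). For Erbb2 it was -0.11 (-0.40 to 0.19), for Fgfr2 -0.15 (-0.50 to 0.19) and for Fgfr3 -0.14 (-0.51 to 0.23). Pdgfra was the receptor with the widest interval, at -0.37 (-0.98 to 0.25). Without control library 6 the values were -0.028 for Pdgfra and -0.0026 for Erbb2. All 8 values were below 0, as were 52.3% of all genes. The receptors are counted in the same libraries, and the signs of Fgfr2 and Fgfr3 turned when control library 6 was left out, at 0.042 and 0.089, and that of Igf1r when control library 3 was, at 0.049.

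Within batch 2, 0 of 9 tested receptors were called (0% of 15647 genes), and within batch 1, 0 of 8 (0% of 16988 genes). At an unadjusted p under 0.05 edgeR found 116 genes in batch 2 (DESeq2 119, limma-voom 104) and 147 in batch 1 (DESeq2 57, limma-voom 157). Pdgfra had a log2 fold change of -0.79 (95% interval -1.69 to 0.11) in batch 2, where the gRNA libraries averaged 35.5 ± 5.87 CPM and the controls 62.2 ± 38.7 CPM (SD, n = 3 each). In batch 1 it was 0.12 (-0.53 to 0.76), with 21.1 ± 4.05 CPM in gRNA libraries and 19.3 ± 7.44 CPM in controls. Without control library 6 the batch 2 value was -0.19. Erbb3, tested in batch 2, had -1.21 (-3.38 to 0.97), and 0.42 without control library 6. Pdgfrb in batch 1 had 5, 10 and 5 reads in the gRNA libraries and 4, 2 and 4 reads in the controls, and was too low to test.

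The difference of the treatment effect between the batches, tested as an interaction, was called for 0 of 9 receptors and for 0% of 18279 genes (236 at an unadjusted p under 0.05 in edgeR, 180 in DESeq2 and 213 in limma-voom). Pdgfra had the smallest p, with a difference of -0.91 (batch 2 effect minus batch 1 effect, log2, SE 0.53, adjusted p = 1.00 by edgeR), and -0.28 without control library 6. None of the 5 gene lists had a called gene in any of the 4 comparisons of gRNA with control. Over 547 receptor values from these comparisons and their alternatives, 0 were called, and the smallest adjusted p was 0.217.

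**Figure D5:**
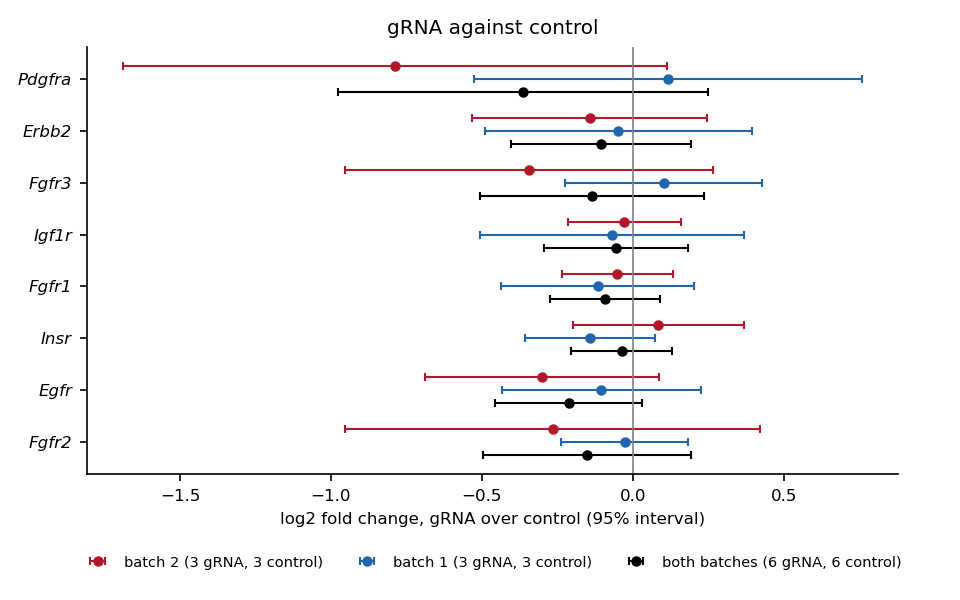
Log2 fold change of 8 receptors, gRNA over control (horizontal axis), with 95% intervals, in batch 2 (3 gRNA, 3 control), in batch 1 (3 gRNA, 3 control) and over both batches (6 gRNA, 6 control). All intervals include 0, and Pdgfra in batch 2 has the widest.

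Among single libraries, receptor levels varied together with other genes inside each batch. After the mean of each batch was taken off, Egfr was most like Slc27a1 (Pearson r = 0.967), Rev3l (0.965) and Dmd (0.957) over the 12 libraries, out of 10341 genes of at least 10 CPM on average. Without control library 6 these were 0.951, 0.954 and 0.964. Fgfr1 was most like Rab14 (0.990), Gnas (0.986) and Pafah1b1 (0.985). These are the highest of many correlations over few libraries that share depth and handling, and they describe likeness only. Between batches, where Egfr had a log2 fold change of -0.72, the values were -0.038 for Slc27a1, 0.29 for Rev3l and -1.75 for Dmd.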

How the data were processed

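RNA-seq was analysed in 12 libraries. Per the labels' protocols, total RNA came from an RNeasy Mini kit, and the stranded libraries were depleted of ribosomal RNA with Ribo-Zero Plus. The submitters' processing notes name HTSeq, STAR, Trimmomatic and SAMtools with build GRCm39, without versions. Annotation release and strand setting are not stated there, so reads of a gene and of an antisense or overlapping partner may be mixed. The authors deposited unnormalized read counts for each Ensembl gene. HTSeq's summary lines (15.6% to 30.3% of reads) entered neither library sizes nor tests. Symbols matched 51880 gene IDs (90.8%), among them all 10 receptors. None of the 66 library pairs had identical counts.

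edgeR 4.0.16 (R 4.3.3) was used for the main tests (filterByExpr, minimum count 10, TMM, quasi-likelihood test, Benjamini-Hochberg adjustment over all genes tested at 0.05), with batch as a term for gRNA against control and treatment as a term for batch 2 against batch 1. Intervals are at 95%. CPM values come from TMM-scaled library sizes. Levels per length were not computed, because exon lengths were not at hand, so levels compare within a gene only. The deposited table of ribosome P-sites was not used: it names transcripts that nothing at hand pairs with genes, and 0 of its 4 library names match a label. No tests of footprints were therefore run. In simulated counts with 17704 genes, 200 genes were altered. The fit of gRNA against control over both batches recovered 48.6% of 1.5-fold, 72.9% of 2-fold and 93.3% of 4-fold changes. The simulated libraries were drawn independently with dispersions fitted to these data, so they hold no structure shared between libraries. The real libraries gave fewer small p-values than uniform p-values would, so these shares may not hold for them.

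The receptors and lists were chosen with earlier results of these data known. Named genes were all 10 receptors and, from each list, the 2 with the highest mean CPM and the 2 with the smallest p in each direction among those called between batches; predicted genes, pseudogenes and clones were left out. For Egfr and Fgfr1 the 3 most correlated genes were named. Alternatives were DESeq2 1.42.0, limma-voom (limma 3.58.1), other low-count filters, no batch term, no TMM, 1 treatment only, a minimum fold of 1.5 and leaving out each library. Leaving out libraries 6 or libraries 3 of both treatments was added after seeing the data. Figures used Python 3.11.15 with matplotlib 3.10.9.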

Additional observations from a re-analysis of the deposited data

Results flagged for a closer look

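Each receptor except Pdgfrb was screened in each treatment for a library far from the other 5, after the mean of its batch was taken off. This covered 18 groups of 6, and chance flags about 1 in 20 such groups. Fgfr3 in gRNA library 2, at 118 CPM, lay 0.30 (log2) above the mean of batch 1, and its gap to the next library was 0.741 of the range of the gRNA group, against Dixon's critical value of 0.625. Fgfr2 in control library 6, at 42.5 CPM, lay 0.78 above the mean of batch 2, with a gap of 0.645 of the range. Fgfr3 in control library 6, at 297 CPM, lay 0.84 above the mean of batch 2, with a gap of 0.638 of the range. Control library 6 thus accounts for 2 of the 3.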

How the results depend on the processing

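No paired analysis was possible because the RNA-seq labels give no replicate numbers and the footprint libraries that carry them could not be matched to their values. Counts of calls for gRNA against control stayed at 0 under the alternatives run, except without a low-count filter, where 1 gene was called over both batches, 1 in batch 1 and 42 for the difference between batches (7 higher, 35 lower); no receptor was among them. Leaving out single libraries gave 0 calls in these comparisons, and 10528 to 12074 calls between batches. Between batches 6730 of 16758 genes were called among control libraries alone and 5594 of 17704 against a minimum fold of 1.5. That minimum left 3 of the 8 tested receptors called, Erbb2, Fgfr2 and Pdgfra. Leaving out single libraries left 6 to 8 called of the 8 or 9 tested, because Erbb3 passed the filter in some of these fits. Fgfr1 was called in none of them.

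The log2 value of Fgfr1 between batches turned to 0.0026 with DESeq2, 0.0049 with limma-voom, 0.049 without a filter, 0.059 among gRNA libraries and 0.083 without TMM, and ranged from -0.030 to 0.080 on leaving out single libraries. Ddr1 ranged from -0.19 to 0.0031. For gRNA against control without libraries 6, signs turned over both batches for Fgfr3 (0.090) and Pdgfra (0.035), in batch 2 for Fgfr2 (7.8e-05) and Fgfr3 (0.075), and for the difference between batches for Egfr (0.077), Erbb2 (0.0095) and Fgfr2 (0.042).

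On leaving out single libraries, some receptor values for gRNA against control turned sign. Over both batches the log2 values ran for Fgfr2 from -0.23 to 0.042, Fgfr3 from -0.22 to 0.089, Igf1r from -0.14 to 0.049. In batch 2 they ran for Erbb2 from -0.26 to 0.051, Erbb3 from -2.09 to 0.42, Fgfr2 from -0.48 to 0.14, Fgfr3 from -0.53 to 0.073, Igf1r from -0.077 to 0.015. In batch 1 they ran for Egfr from -0.19 to 0.011, Erbb2 from -0.23 to 0.16, Fgfr1 from -0.22 to 0.0047, Fgfr2 from -0.094 to 0.029, Fgfr3 from -0.033 to 0.19, Pdgfra from -0.16 to 0.28, Igf1r from -0.27 to 0.13. For the difference between batches they ran for Erbb2 from -0.32 to 0.12, Erbb3 from -1.62 to 0.91, Fgfr1 from -0.038 to 0.16, Fgfr2 from -0.46 to 0.19, Igf1r from -0.17 to 0.23. The cause of these changes was not tested, and none of the values that turned sign was called. Alternatives for footprints, for levels per length and for pairs of libraries of the same number were not run. Depth limits Erbb3 and Pdgfrb, with 138 and 31 reads in all 12 libraries. With 3 libraries a group, 17.1% of simulated 1.5-fold changes were recovered in batch 2 (15647 genes) and 18.6% in batch 1 (16988 genes). These shares also come from independently drawn libraries and may not hold for the real ones.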
